A study of Mus musculus with 18 samples.

Results

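The regions described here are the differential m6A peaks of mouse uterus that lay in internal exons of coding transcripts. A peak was counted when its deposited annotation placed it in an exon of a RefSeq mRNA, known (NM) or predicted (XM), that was neither the first nor the last exon of that transcript. The host gene is the symbol given with the transcript. The rule selected 9966 of 40929 peaks in 4 peak tables, and they lay in 4843 host genes. The rule used position only and no measured value.

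The study injected pregnant wild-type ICR mice, 8 weeks old, and took the uterus on day 5 of pregnancy. Vehicle mice (Veh) received saline from day 1 to day 4. LPS mice received saline on the same days plus 0.5 mg/kg lipopolysaccharide, a bacterial cell wall component that triggers inflammation, on days 3 and 4. Mel+LPS mice received 10 mg/kg melatonin, a hormone of the pineal gland, in place of saline, with LPS following 30 min later on days 3 and 4. Each of the 3 treatments had 3 immunoprecipitated and 3 input libraries, 18 in all. All groups were pregnant and all were injected daily. The whole organ was used, so each peak mixes epithelium, stroma, muscle, vessels and immune cells. In such bulk RNA, fewer cells of a type and less RNA per cell cannot be told apart.

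The 4 tables list peaks up or down in each of 2 comparisons, LPS vs Veh (the LPS comparison) and Mel+LPS vs LPS (the melatonin comparison). Each peak carries a single value, the log10 likelihood ratio (LLR) between the conditions of that comparison, with no value per animal. The lists are called LPS-up, LPS-down, melatonin-up and melatonin-down below. A test against the spread between mice could therefore not be made. The intervals given below are Wilson 95% intervals for shares and cover counting error only. The direction is the one the table itself states. A listed change of m6A signal and a listed change of RNA level cannot be told apart from these tables. Both comparisons use the LPS libraries, so a peak that is down in one and up in the other is not seen in independent samples. The LPS-down list was complete for chromosomes 1 to 9 only, so LPS-up and LPS-down were set side by side on those chromosomes. LPS-up counts given alone are for all chromosomes.

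N6-methyladenosine (m6A) is a methyl mark on internal adenosines of mRNA. A writer complex built around METTL3 and METTL14 deposits it at short sequences such as GGAC, FTO and ALKBH5 can remove it, and YTH-domain proteins bind it. The mark is best known near stop codons and in 3′UTRs, and it is also known in long internal exons, while exons of ordinary length carry less of it.

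The sequences below come from the host exons of the peaks with the highest LLR, 5 host genes per table. They are shown so that the exon letters at the strongest calls can be read. Intron sequence under the peaks was not read. Each is the 29-base window around the GGAC nearest the peak centre, on the strand of the transcript and inside the exon, with GGAC in capitals. Of these 20 peaks, 6 had that GGAC inside the peak, 4 had it in the exon but outside the peak, 7 had no GGAC in the exon, and 3 could not be placed on an exon of the host gene in GENCODE M21, the annotation that supplied the sequences (GRCm38). In the first set, GGAC lay inside the peak.
Gm5150, chr3:15990747-15990775, minus strand: cagaagaaacctGGACttttctatctgca
Clca1, chr3:145005899-145005927, minus strand: tgaatctgacgtGGACggctcctggggat
Aoc1, chr6:48905881-48905909, plus strand: cacagatgtccaGGACtggagagtggaac
Fga, chr3:83031284-83031312, plus strand: atcggaaccctgGGACcacggggtctgat
Urb2, chr8:124029307-124029335, plus strand: gggccttctcctGGACctctggagtccag
Fcgbp, chr7:28086387-28086415, plus strand: ggtgacctgcagGGACacaacaggatgcc

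In the second set, the exon held GGAC outside the peak, and windows that would have crossed the end of the exon were moved inward.
Mme, chr3:63345125-63345153, plus strand: gccctttatgGGACtacatcagaaactgc
Marco, chr1:120488147-120488175, minus strand: gggagacaaaggGGACctaggccttccag
Uox, chr3:146625755-146625783, plus strand: gggcgctgtccgGGACattgtcctgcaga
Rarb, chr14:16434295-16434323, minus strand: accgccaGGACcttgaggaaccaacaaaa
No GGAC was found in the host exons of Saa3, Ass1, Mob4, Knstrn, Arfgef1, Zswim9 and Dst. Most of each of these peaks lay off the exon, where no sequence was read. For example, 11 of 178 bases lay on the exon for Ass1 and 12 of 151 for Mob4. A match is a description of the letters, not a mapped methylation site.

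Internal exon peaks made up a different share of each table. They were 2401 of 12023 peaks up in the LPS comparison (19.97%, interval 19.27 to 20.69%) and 1519 of 6259 peaks down (24.3%, 23.2 to 25.3%). In the melatonin comparison they were 4877 of 13436 peaks up (36.3%, 35.5 to 37.1%) and 1169 of 9211 peaks down (12.69%, 12.03 to 13.39%). The share was thus highest among the peaks higher in Mel+LPS than in LPS and lowest among those lower in Mel+LPS, and the 4 intervals did not overlap. When the exon under the peak centre set the class, the shares were 10.4%, 10.2%, 16.5% and 5.76% in the same order, and the intervals of LPS-up and LPS-down overlapped. The LPS-up share is over all chromosomes, and on chromosomes 1 to 9 it was 19.5% (18.6 to 20.5%).

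Directions were then compared. In the LPS comparison on chromosomes 1 to 9, 1214 internal exon peaks were up and 1519 down, so that 44.4% were up (42.6 to 46.3%). Over all differential peaks of that comparison the background was 49.8% up. In the melatonin comparison, 4877 were up and 1169 down, 80.7% (79.7 to 81.6%), beside a background of 59.3% over all differential peaks. Peaks outside internal coding exons were up in 51.4% of cases in the LPS comparison and in 51.6% in the melatonin comparison. Internal exon peaks therefore lay below the background in the first comparison and above it in the second. First coding exons had a like balance, with 40.6% up in the LPS comparison and 82.4% in the melatonin comparison. So did 5′UTRs, with 45.3% and 75.9%. Last coding exons differed, with 64.9% and 68.0%, and 3′UTRs, with 48.8% and 55.5%, stayed closer to the background.

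**Figure D1:**
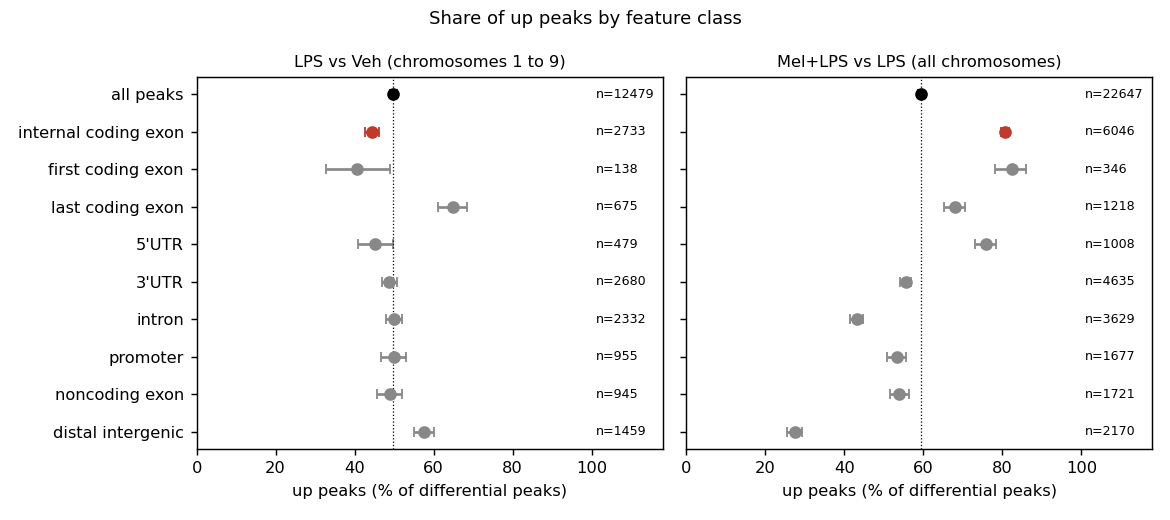
Share of up peaks among the differential peaks of each feature class (horizontal axis, percent), for the LPS comparison on chromosomes 1 to 9 (left) and the melatonin comparison (right). Points are shares, bars are Wilson 95% intervals, n is the number of peaks and the dotted line is the share over all peaks. Internal coding exons lie at 44.4% on the left and at 80.7% on the right.

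Up peaks outnumbered down peaks on every chromosome in the melatonin comparison. The share of up peaks in internal exons ran from 73.0% on chromosome X to 85.9% on chromosome 17. In the LPS comparison it ran from 41.0% on chromosome 4 to 47.9% on chromosome 9, below 49.8% on each of the 9 chromosomes. Known (NM) transcripts gave 41.8% up in the LPS comparison and 81.8% in the melatonin comparison, and predicted (XM) ones gave 48.2% and 79.0%.

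The LLR values were mostly low. The median was 2.22 for LPS-up, 2.11 for LPS-down, 2.10 for melatonin-up and 2.17 for melatonin-down. The other peaks of the same tables had higher medians, 3.19, 2.95, 2.21 and 3.30 in the same order. An LLR of 10 or more was reached by 74 internal exon peaks up in the LPS comparison (3.08%), 67 down (4.41%), 144 up in the melatonin comparison (2.95%) and 23 down (1.97%). Among the other peaks the shares were 3.72%, 4.11%, 2.77% and 2.36%, near those of the internal exon peaks and lower in 2 of the 4 tables. The highest values were 57.7, 221.6, 28.4 and 18.7, so the widest range was among peaks down in the LPS comparison. Median peak width was 175 to 178 bases.

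The position of the peaks was compared with the exons themselves. Of the 9966 peaks, 9376 (94.1%) overlapped an internal exon of a coding transcript of the host gene in GENCODE M21 by at least 1 base, and 590 did not, 372 of the 9966 lying on unplaced scaffolds or alternate assemblies. Most peaks were only partly exonic. Of all peak bases, 52.4% lay on the exon for LPS-up, 43.5% for LPS-down, 50.5% for melatonin-up and 45.8% for melatonin-down. The peak centre lay on the exon in 42.3%, 32.1%, 37.3% and 36.7% of cases. The label internal exon therefore means that the peak touched such an exon, and for most peaks the centre lay outside it. These shares are over the placed peaks.

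This overhang had a side. The peak ran past the 3′ end of the exon in 68.5% of LPS-up peaks, 78.6% of LPS-down peaks, 73.9% of melatonin-up peaks and 74.3% of melatonin-down peaks. It ran past the 5′ end in 3.27%, 2.69%, 2.73% and 5.05%. The median peak began 100 to 119 bases inside the exon and ended 97 to 115 bases beyond its 3′ end. The side was the same for genes of either strand, for example 69.9% on the plus strand and 66.9% on the minus strand in LPS-up. A position 100 bases beyond the exon was covered by 48.7 to 58.3% of peaks, and a position 200 bases beyond by 0.0650 to 0.272%. In exons of 400 bases or more, fewer peaks crossed the 3′ end, 13.5%, 22.7%, 18.8% and 17.5% in the same order.

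**Figure D2:**
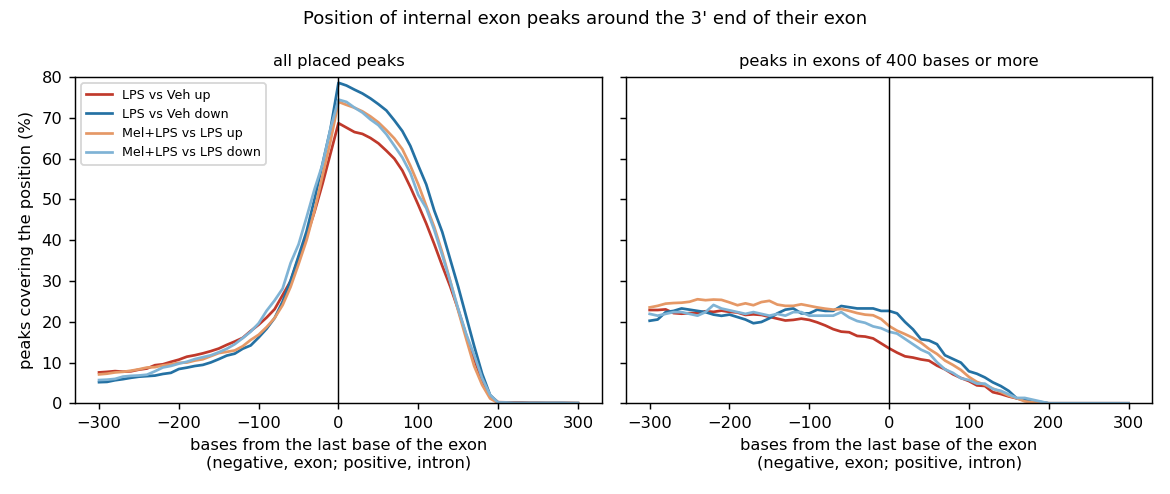
Percent of internal exon peaks that cover each position (vertical axis) against the distance in bases from the last base of the exon (horizontal axis, positive values in the intron downstream in transcript direction), for all placed peaks (left) and for those in exons of 400 bases or more (right), 1 line per table. On the left, coverage is 68.7 to 78.6% at the last base of the exon and near 0 at 200 bases beyond it.

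Peaks lay in longer exons than the annotation holds. The median length of the exon under a peak was 180 bases for LPS-up, 162 for LPS-down, 173 for melatonin-up and 156 for melatonin-down, against 123 bases over 180973 annotated internal exons of 18503 coding genes. Exons of 400 bases or more held 29.9%, 22.3%, 28.1% and 21.3% of the peaks and made up 2.93% of the annotated exons. Exons of 1000 bases or more held 17.0%, 12.4%, 15.9% and 11.96%, against 0.731% of the annotation. A longer exon offers more bases for a peak to touch, and this comparison was per exon and not per base.

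**Figure D3:**
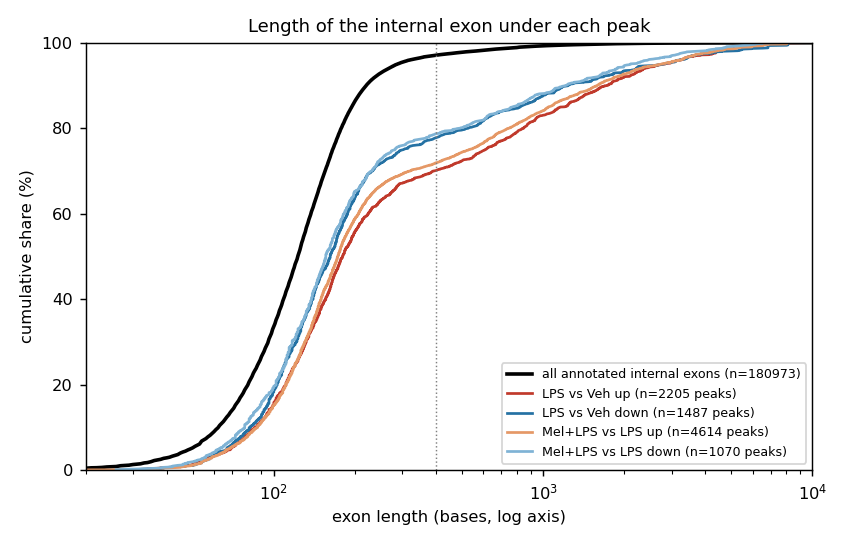
Cumulative share (vertical axis, percent) of internal exon peaks by the length of the exon under them (horizontal axis, bases, log axis), 1 coloured line per table, with all annotated internal exons in black. The dotted line marks 400 bases, at or above which lie 21.3 to 29.9% of peaks and 2.93% of annotated exons.

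Direction also varied with exon length and position. In the LPS comparison, the share of up peaks was 40.4% in exons under 100 bases, 40% from 100 to under 200, 46.9% from 200 to under 400, 52.1% from 400 to under 1000 and 52.2% at 1000 or more. In the melatonin comparison it was 77.1%, 80.4%, 80.8%, 84.9% and 85.2%. In both comparisons the share was higher in exons of 1000 bases or more than in those under 100, with intervals of 47.2 to 57.2% against 36.0 to 45.0% for LPS and 82.6 to 87.4% against 74.3 to 79.8% for melatonin. By exon number, with each transcript cut into 3 equal parts, the early, middle and late parts had 40.1%, 44.0% and 48.6% up in the LPS comparison, and 85.4%, 82.7% and 73.1% in the melatonin comparison. The share thus went up along the transcript in the LPS comparison, where neighbouring parts overlapped and the early (36.7 to 43.5%) and late (45.4 to 51.8%) intervals did not. It went down in the melatonin comparison, where the late part (71.0 to 75.1%) lay apart from the other two. Penultimate exons, next to the last, had 70.7% up in the melatonin comparison (67.2 to 74.0%), and second exons had 84.1% (81.5 to 86.5%).

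The order along the transcript was also read within length classes. Among exons under 400 bases, the early, middle and late parts had 86.3%, 82.1% and 71.2% up in the melatonin comparison, and 36.3%, 41.5% and 45.3% in the LPS comparison. Among exons of 400 bases or more, they had 86.1%, 86.7% and 80.8% in the melatonin comparison, and 47.2%, 53.2% and 56.9% in the LPS comparison. In these long exons the late share was again the lowest in the melatonin comparison and the highest in the LPS comparison. The late interval of the melatonin comparison (76.4 to 84.5%) overlapped the early (83.1 to 88.7%) and middle (83.7 to 89.3%) ones. The 3 intervals of the LPS comparison overlapped too. Overlap of intervals does not show that shares are equal, and the difference between parts was not tested.

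**Figure D4:**
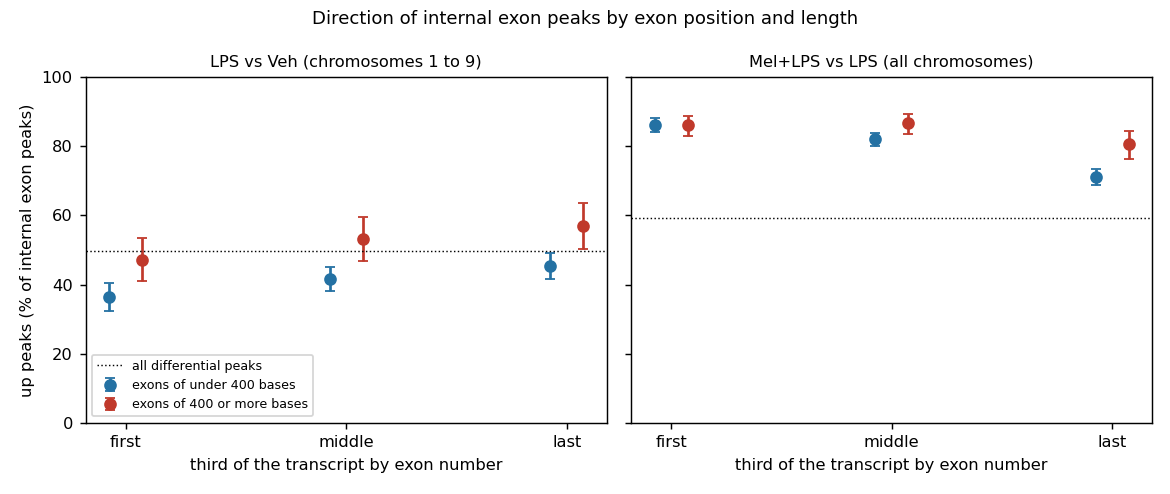
Share of up peaks among internal exon peaks (vertical axis, percent) in the first, middle and last of 3 equal parts of the transcript by exon number (horizontal axis), for exons under 400 bases (blue) and of 400 bases or more (red). Bars are Wilson 95% intervals and the dotted line is the share over all differential peaks; in the melatonin comparison, short exons go from 86.3 to 71.2%, and in the LPS comparison they go from 36.3 to 45.3%.

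The sequence GGAC was counted on the transcript strand in the exonic part of each peak and in the rest of the same exon. It occurred 5.49 times per 1000 bases inside LPS-up peaks and 4.46 times outside, a ratio of 1.230 (1.154 to 1.311). The ratio was 1.07 (0.976 to 1.16) for LPS-down, 1.273 (1.219 to 1.329) for melatonin-up and 1.14 (1.02 to 1.27) for melatonin-down. The interval for LPS-down included 1. The one for melatonin-down did too when only exon sequence within 200 bases of the peak was set against it (1.098, 0.968 to 1.245) and among peaks with an LLR of at least 3 (1.08, 0.891 to 1.29). The intervals take each GGAC as independent and peaks of 1 exon share its sequence. Counts were pooled over all peaks, so each ratio also compares exons of different length. In LPS-up, exons of 400 bases or more held 1001886 of the 1152307 bases outside and 125662 of the 213634 bases inside. All internal exons of the annotation held 4.85 GGAC per 1000 bases, and 45.5% held at least 1. The reverse complement GTCC, counted the same way, was less frequent in the peaks than outside, with ratios of 0.736, 0.790, 0.802 and 0.803. The exonic part of 34.0%, 27.2%, 33.8% and 27.2% of the peaks held a GGAC.

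Peaks in exons of 400 bases or more showed a larger contrast than all peaks together. There the ratio of GGAC inside to outside was 1.35 (1.25 to 1.46) for LPS-up, 1.27 (1.14 to 1.42) for LPS-down, 1.36 (1.29 to 1.43) for melatonin-up and 1.277 (1.098 to 1.480) for melatonin-down. Restricting to long exons was chosen after the data were seen. No ratio was computed for shorter exons alone, so the pooled ratios cannot be taken as theirs.

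Among single genes, the peaks up in the LPS comparison with the highest LLR were the following. Saa3, which encodes the acute-phase protein serum amyloid A3, had an LLR of 57.7 in exon 2 of 4 at chr7:46714822-46715059, and no differential internal exon peak in the other 3 tables. Counting peaks of any class, Saa3 had 4 up in the LPS comparison and 1 down in the melatonin comparison. It belongs to a family of related genes, whose reads may be shared. Mme, the gene of the membrane peptidase neprilysin, had 6 peaks up in the LPS comparison with LLR 6.92 to 24.2, the highest in exon 13 of 23 at chr3:63345239-63345415. The same exon held the only internal exon peak of Mme down in the melatonin comparison, with an LLR of 3.57, and Mme had 1 other down peak there outside internal exons. Marco, a scavenger receptor of macrophages, had LLR 20.4 in exon 8 of 17 and 4.94 in exon 12. The predicted gene Gm5150 reached 28.2 in exon 2 of 5. H2-Q4-4, a copy of a class I histocompatibility gene on a scaffold, reached 24.4, and reads of such copies are uncertain because near-identical sequences share them.

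The highest LLR of any internal exon peak were in LPS-down. Clca1, a secreted protein of mucus-producing epithelial cells, had 8 peaks in 8 exons, all down, with LLR from 53.1 to 221.6 and a median of 105.2. The highest lay at chr3:145005708-145005922. No internal exon peak of Clca1 was listed in the melatonin comparison. Aoc1, which encodes diamine oxidase, the enzyme that breaks down histamine, had LLR 110.4 and 86.6 for peaks down in its 1589-base exon 2. The same exon held 2 peaks up in the melatonin comparison with LLR 20.9 and 4.99. Fga, the fibrinogen alpha chain, had an LLR of 40.2 down in exon 5 of 6, 1147 bases long, and 6.24 up in the melatonin comparison. Uox, which encodes urate oxidase, had a single peak, with LLR 35.5 down in the LPS comparison. Its assigned nearest gene was a different one, Dnase2b. Ass1, the argininosuccinate synthase of the urea cycle and of arginine synthesis, had 7 peaks down in 7 exons with LLR 7.07 to 34.1, and a peak up in the melatonin comparison in exon 9 with LLR 11.1. The down peaks of Clca1 and Ass1 thus touched 8 of 12 and 7 of 14 annotated internal exons, while the internal exon peaks of Aoc1 and Fga sat in 1 long exon. Outside internal exons, Aoc1 had 2 more down peaks in the LPS comparison, 1 of them in the 3′UTR with an LLR of 142.7, and Clca1 had 1, in the 3′UTR with 217.9.

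In the melatonin comparison, the highest up values were spread over genes of several functions. Ahnak2, a very large scaffold protein, had 3 up peaks in exon 8 of 10 with LLR 28.4, 14.9 and 2.99. Urb2, a ribosome biogenesis factor, had LLR 27.5 at chr8:124029250-124029423 and 4 up peaks in its 3331-base exon. Mob4, a subunit of a phosphatase-kinase complex, reached 24.8. Knstrn, a protein of the kinetochore and spindle, reached 24.0. Arfgef1, an exchange factor for the ARF GTPases of vesicle transport, had LLR 21.6 in exon 16 of 38, the same exon that was down in the LPS comparison with LLR 12.3. In Urb2, the lists of the LPS comparison listed 1 up peak (3.21) and 1 down peak (2.66) in the same exon.

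Down values in the melatonin comparison were lower. Rarb, a receptor for retinoic acid, had LLR 18.7 in exon 7 of 8 at chr14:16433990-16434189, and a peak up in the LPS comparison overlapped it with LLR 4.27. Zswim9 had LLR 17.4 in exon 3 of 5. Fcgbp, a mucus protein of secretory epithelia, had LLR 14.2 in exon 5 of 20 and 3 peaks down in the LPS comparison with LLR 1.505 to 8.754. Rabep1-2, on a scaffold, reached 13.9 and carries the same uncertainty as H2-Q4-4. Dst, which encodes the cytoskeletal linker dystonin, had LLR 13.9 in exon 45 of 103.

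A few genes held many internal exon peaks. Mki67, a protein of dividing cells, had 23 over the 4 tables, with 11 down in the LPS comparison (LLR 1.23 to 5.03), 11 up in the melatonin comparison (1.41 to 7.67), 1 up in the LPS comparison and none down in the melatonin comparison. Of the down peaks, 9 lay in its 6836-base exon 10. Cenpe, a kinetochore motor protein, had 20, with 8 down in the LPS comparison in 8 exons and 9 up in the melatonin comparison in 9 exons, beside 1 up in the LPS comparison and 2 down in the melatonin comparison. In Cenpe, the exon 27 value was 9.89 down in the LPS comparison and 7.60 up in the melatonin comparison, and the exon 31 values were 7.51 and 7.70. Map1a, a microtubule-associated protein, had 17 peaks, all in 1 exon of 8104 bases, with 9 down in the LPS comparison (highest 15.04), 1 up (1.38) and 7 up in the melatonin comparison (highest 7.20). Both mitotic genes and Map1a were listed mainly down with LPS and up with melatonin, in comparisons that share the LPS libraries. They were named for their number of peaks. Over all internal exon peaks, 44.4% were up in the LPS comparison and 80.7% in the melatonin comparison. In the melatonin comparison Cenpe, with 9 up and 2 down, was near that share.

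The cytoskeletal linkers were also listed mainly up in the melatonin comparison, as were internal exon peaks of all genes together (80.7% up). The wider list of adhesion proteins and linkers, given below, had 81.4% up there, so this was not particular to the linkers. In the LPS comparison the counts of Dst and Macf1 were small. Dst had 20 peaks, 14 of them up in the melatonin comparison with LLR 1.54 to 9.26, and 2 down with 5.11 and 13.9. In the LPS comparison Dst had 1 up and 3 down. Macf1, a relative of dystonin that joins actin and microtubules, had 18, with 4 up and 2 down in the LPS comparison and 11 up and 1 down in the melatonin comparison. Syne2, which links the nucleus to the cytoskeleton, had 16, with 6 up in the LPS comparison, 8 up in the melatonin comparison and 2 down. Syne2 lies on chromosome 12, where the LPS-down list was not used.

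**Figure D5:**
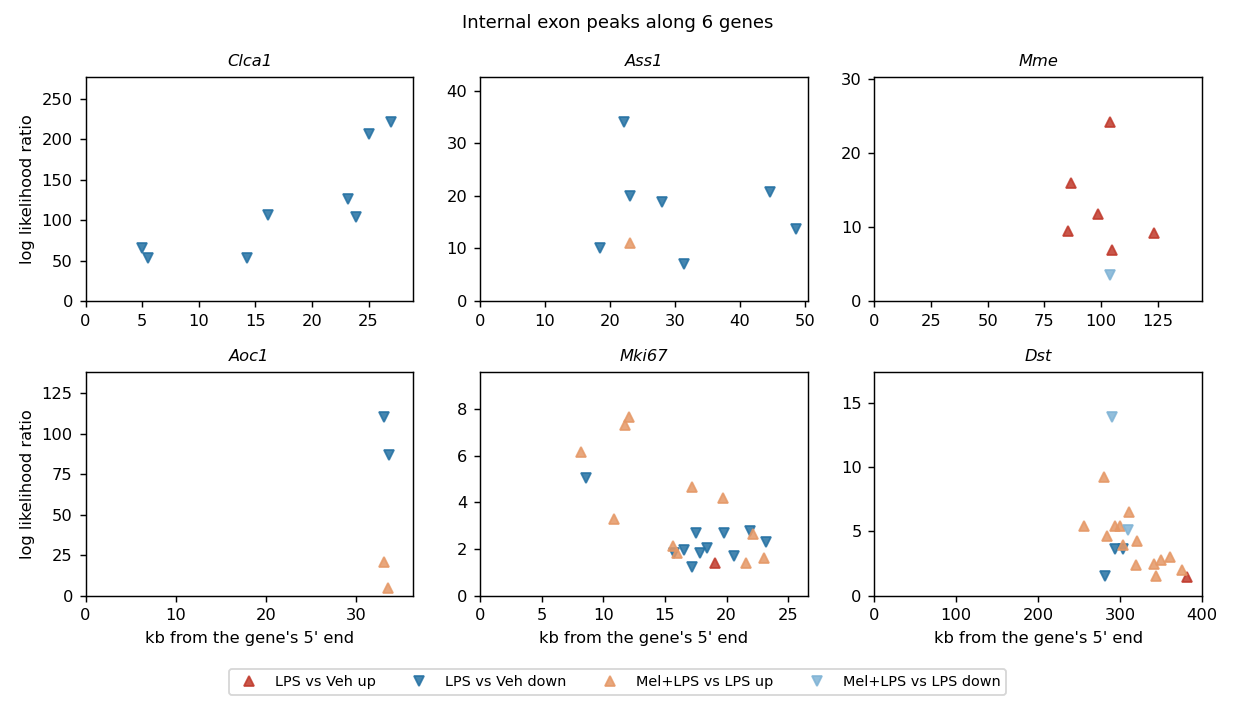
LLR (vertical axis) of every internal exon peak of 6 genes against the distance in kb of the peak centre from the 5′ end of the gene (horizontal axis). Triangles point up or down as listed and colours give the table; Clca1 has 8 down peaks of 53.1 to 221.6 and no up peak, Mme has 6 up peaks in the LPS comparison, and Mki67 mixes LPS-down and melatonin-up peaks.

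Runs of peaks along a gene were commonest in melatonin-up. In that list, a total of 55 host genes had peaks in 5 or more exons, against 7 in each list of the LPS comparison and 0 in melatonin-down. That list was also the largest, with 4877 internal exon peaks against 2401 in LPS-up, 1519 in LPS-down and 1169 in melatonin-down. Of the 55 genes, 45 had no internal exon peak down in the same comparison. Over all 3117 host genes of melatonin-up, only 360 had one, so this lack was not particular to the runs. The count for LPS-down covers chromosomes 1 to 9 and the others all chromosomes, so the lists did not have the same reach. Most host genes had only 1 peak, 67.7% of them in melatonin-up and 77.5 to 88.7% in the other tables. The genes with long runs, named here after their values were seen, included Col1a1 with 10 peaks up in 10 exons (LLR 1.27 to 11.6), Col3a1 with 10 in 10 (1.20 to 5.88) and Col6a3 with 11 in 9 (1.05 to 6.97), all collagens. Among the 7 genes of LPS-up were Hcls1, an actin regulator of blood cells, with 10 peaks in 10 exons (1.60 to 5.57), and C3, the central complement protein, with 6 in 6 (1.47 to 7.50). Among the 7 of LPS-down were Tpx2, a spindle protein, with 6 in 6 (1.77 to 6.99), and Ltf, the secreted iron-binding lactoferrin, with 6 in 6 (1.95 to 12.2).

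Some host genes had internal exon peaks in both directions within 1 comparison. These were 235 of 1833 host genes in the LPS comparison (12.8%, 11.4 to 14.4%) and 360 of 3783 in the melatonin comparison (9.52%, 8.62 to 10.5%). Within a single exon both directions were rarer, with 59 of 2547 exons (2.32%) and 77 of 5580 exons (1.38%). In the LPS comparison, Med13l, a subunit of the Mediator kinase module, had LLR 8.75 up and 9.18 down in exon 10 of 31. Zfhx3, a zinc finger homeobox factor, had 4.34 up and 6.24 down, and Sytl2, a vesicle trafficking protein, had 5.14 up and 4.24 down. In the melatonin comparison, Tex15, known from meiosis, had 6.94 up and 8.79 down in exon 9 of 12, with centres 3773 bases apart. Thoc2l had 6.27 up and 6.83 down, and the ankyrin repeat protein Ankrd12 had 5.42 up and 6.04 down.

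Gene groups were then counted as genes with at least 1 internal exon peak, beside the share of all coding genes with an internal exon that had one. That background was 9.01% for LPS-up, 11% for LPS-down, 15.8% for melatonin-up and 5.12% for melatonin-down. Genes with more internal exons have more places for a peak, and the median number of internal exons was 6 over all these genes. Counts for the LPS comparison are for chromosomes 1 to 9. Genes beyond the 2 highest of a list were named after their values were seen.

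Extracellular matrix and basement membrane genes, with a median of 39.5 internal exons, had peaks up in the melatonin comparison in 31 of 52 genes and down in 5. Of 31 on chromosomes 1 to 9, 5 had peaks up and 15 had peaks down in the LPS comparison. As peaks, 121 were up and 5 down in the melatonin comparison (96.03% up, against 80.7% of all internal exon peaks), and 7 were up and 28 down in the LPS comparison (20%, against 44.4%). The highest values were LLR 13.6 for Col12a1 in exon 26 of 66 and 11.6 for Col1a1 in exon 40 of 51, both up in the melatonin comparison. Fn1, which encodes fibronectin, had 3 down in the LPS comparison and 7 up in the melatonin comparison. Periostin (Postn) had 4 and 5.

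Smooth muscle genes, with a median of 19 internal exons, were also listed mainly up in the melatonin comparison, while their peaks in the LPS comparison were few. In the melatonin comparison, 22 of 35 had peaks up and 2 had peaks down, and in the LPS comparison 3 of 16 had peaks up and 6 down. As peaks, 63 were up and 2 down in the melatonin comparison (96.9% up, against 80.7% of all internal exon peaks). In the LPS comparison 4 were up and 9 down (30.8%, against 44.4%). Ryr3, an intracellular calcium channel, had the highest value, LLR 8.72 down in the LPS comparison in exon 15 of 106. Flna, the actin crosslinker filamin A, had 7 peaks up in 7 exons in the melatonin comparison with LLR 1.101 to 7.542. Actg2, the smooth muscle gamma actin, had 4 of the 9 down peaks of the LPS comparison, so that balance rested largely on 1 gene. It had 4 up in the melatonin comparison. Its coding sequence is close to that of the other actins, so reads may be shared among them.

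Chromatin modifiers, with a median of 24 internal exons, had peaks up in the melatonin comparison in 48 of 69 genes and down in 14. The LPS comparison had peaks up in 21 of 37 and down in 13. The share of up peaks was 60.5% in the LPS comparison (26 up, 17 down), against 44.4% of all internal exon peaks. It was 87.6% in the melatonin comparison (120 up, 17 down), against 80.7%. Chd9, a chromatin remodeller, had LLR 13.1 and Ep300, a histone acetyltransferase, had 12.003, both up in the melatonin comparison. Kmt2a, a histone H3 lysine methyltransferase, had 8 up in the melatonin comparison and none down.

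Genes known for a long internal exon, with a median of 23 internal exons, had peaks up in the melatonin comparison in 33 of 47 cases and down in 13. In the LPS comparison 19 of 30 had peaks up and 17 down. They held 137 up and 20 down peaks in the melatonin comparison (87.3% up, against 80.7% of all internal exon peaks). In the LPS comparison they held 44 up and 55 down (44.4%, the same as over all internal exon peaks). In Akap13, a kinase anchoring protein, the highest value was LLR 15.8, up in the melatonin comparison in exon 18 of 38, and in Map1a it was 15.04. Adhesion proteins, spectraplakins and atypical cadherins, with a median of 32 internal exons, had peaks up in 14 of 37 genes and down in 12 in the melatonin comparison. In the LPS comparison 7 of 19 had peaks up and 7 down. As peaks, 70 were up and 16 down in the melatonin comparison (81.4% up), and 11 up and 13 down in the LPS comparison (45.8%). Both shares were near those of all internal exon peaks. Ahnak2 and Fat1, an atypical cadherin with LLR 14.2, led that list.

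Among the m6A writers, erasers and readers, 9 of 20 genes had peaks up and 5 had peaks down in the melatonin comparison, and 1 of 9 had peaks up and 4 down in the LPS comparison. The reader Ythdc1 had LLR 13.2 down in the LPS comparison in exon 3 of 18, and 2 peaks up and 1 down in the melatonin comparison. The reader Ythdf1 had 3 peaks down in the LPS comparison and 2 up in the melatonin comparison, the highest 4.68. Virma, a scaffold of the writer complex, had 4 peaks up in the melatonin comparison. Mettl14 had 1 peak up (2.18) and 1 down (2.15) in the melatonin comparison, both of low value. Of the genes with mouse qPCR primers in the study and the melatonin receptors, 19 had an internal exon, with a median of 6. They include 7 of the m6A genes above and leave out the reference gene Gapdh. Peaks were up in 7 of the 19 and down in 1 in the melatonin comparison, and in the LPS comparison 0 of 11 had peaks up and 2 had peaks down, Ythdf1 and Ythdf2. The reader Ythdf2 had LLR 2.57 down in the LPS comparison, and 1.74 and 1.30 up in the melatonin comparison. The others with peaks up in the melatonin comparison, besides Mettl14 and Ythdf1, were Stat3, with 3 peaks of LLR 1.34 to 3.10, Rela, the NF-kB subunit p65, with 2.38, the eraser Fto with 1.57 and the autophagy receptor Sqstm1 with 1.36. The eraser Alkbh5, on chromosome 11 and so outside the counts of the LPS comparison, had a peak up with LLR 1.41 there.

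Toll-like receptor and NF-kB genes were near the background in the melatonin comparison, with peaks up in 7 of 43 (16.3%) and down in 3 (6.98%). Peaks were up in 4 and down in 3 of 21 in the LPS comparison. Tnfaip3, an inhibitor of NF-kB signalling, had 2 peaks up in the LPS comparison with LLR 6.03 and 4.84, on chromosome 10 and so outside those counts. Chuk, an IkB kinase subunit, had 5.67 up in the melatonin comparison. Uterine receptivity and decidua genes had peaks up in 12 of 42 and down in 5 in the melatonin comparison, and up in 4 and down in 6 of 24 in the LPS comparison. In that group Lpar3, a lysophosphatidic acid receptor needed for implantation, had LLR 12.5 up in the LPS comparison and 3.43 down in the melatonin comparison. Ltf was down in both comparisons, with 6 peaks in the LPS comparison and 4 in the melatonin comparison.

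Cell type markers were counted in the same way, since the tables hold no expression level. Epithelial markers had peaks up in 0 and down in 4 of 11 genes in the LPS comparison, and up in 2 and down in 6 of 20 in the melatonin comparison. As peaks these were 2 up and 7 down in the melatonin comparison (22.2% up), fewer up than down, which was so in none of the other lists there. The 6 genes with peaks down there were Elf3, Grhl2, Krt19, Krt18, Muc1 and Krt7. Elf3, an epithelial transcription factor, had 3 peaks down in the LPS comparison, the highest 20.9, and 1 down in the melatonin comparison with 3.27. Cdh1, which encodes E-cadherin, had LLR 15.9 down in the LPS comparison and 11.8 up in the melatonin comparison. It was 1 of the 2 epithelial markers with peaks up there, the other being Muc4. Leukocyte markers had peaks up in 4 and down in 2 of 20 genes in the LPS comparison, and up in 5 and down in 2 of 32 in the melatonin comparison. The shares were near the background for LPS-down (10%, against 11%), melatonin-up (15.6%, against 15.8%) and melatonin-down (6.25%, against 5.12%). For LPS-up the share was 20%, against 9.01%. Cd163, a macrophage receptor, had the highest leukocyte value, LLR 8.40 down in the LPS comparison, where Mrc1 was also down. Ptprc, which encodes CD45, had 7.62 up in the melatonin comparison and 3.56 up in the LPS comparison. Fcgr3 (3.42), Klrk1 (3.04) and Itgam were likewise up in the LPS comparison. Fcgr3 and Klrk1 were the 2 leukocyte markers with peaks down in the melatonin comparison, 1 peak each.

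Endothelial markers had peaks up in 4 and down in 3 of 14 genes in the LPS comparison, and up in 7 and down in 2 of 19 in the melatonin comparison. Mmrn1, of endothelial cells and platelets, had LLR 13.4 up in the melatonin comparison, and Vwf, the von Willebrand factor, had 7.80 up in the LPS comparison. Skeletal and cardiac muscle markers, which a uterus should lack, had peaks up in 0 and down in 3 of 11 genes in the LPS comparison, and up in 1 and down in 1 of 19 in the melatonin comparison. Mybpc2 had 5.04 down, and Acta1, an actin close in sequence to those of smooth muscle, had 3 peaks down in the LPS comparison and 4 up in the melatonin comparison. The part of cell composition in the counts of the other gene groups was not tested.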

How the data were processed

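m6A-seq of mouse uterus was measured in immunoprecipitated and input libraries, 3 per treatment. Per the study's methods, reads were trimmed with Fastp, aligned to mm10 with STAR 2.5.2a, peaks were called with exomePeak2, differences with MACS2, and annotation came from ChIPseeker 1.22.1. How the 3 replicates were combined is not given in the sources used here. The deposited score of each peak is a log10 likelihood ratio that the authors computed per comparison. Depth per library is unknown from these files.

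Peaks were selected by annotation, and the members and lists were chosen with earlier results of these data known. Exons came from GENCODE M21 on GRCm38 (host gene, internal exon with most bases under the peak, at least 1 base). The tables state no value per replicate, so no test was run. Shares have Wilson 95% intervals and ratios have exact intervals on counts, which cover counting error only. Named genes were, per table, the 5 host genes with the highest value, the 6 with most peaks, 3 per comparison with both directions in 1 exon, the 2 highest of each list and the genes with mouse qPCR primers in the study. Ties were broken by name. An incomplete last line of the LPS vs Veh down list and its 43 internal exon peaks beyond chromosome 9 were left out. Placement, motif ratio and intervals were tested on simulated data. Python 3.11.15, numpy 2.4.6, pandas 2.3.3 and scipy 1.17.1 were used. Alternatives covered the threshold, width, merging, chromosomes, transcript type, exon choice, motif and strand.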

Additional observations from a re-analysis of the deposited data

How the results depend on the processing

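Of 90 values recomputed under another choice, 47 stayed within their interval or within 1.5 times the count, and 43 moved. No paired analysis was possible because the tables hold 1 value per peak and comparison and none per replicate. Tables are taken in the order LPS vs Veh up and down, then Mel+LPS vs LPS up and down. The share of peaks in internal exons was 14.9%, 18.2%, 32.7% and 9.40% at an LLR of at least 3, 11.3%, 15.1%, 22.1% and 7.19% with NM transcripts only, and 10.4%, 10.2%, 16.5% and 5.76% when the exon under the peak centre set the class; with 1 peak per gene it moved to 21.8% for LPS vs Veh down and to 31.7% for Mel+LPS vs LPS up. In each of these the share stayed highest in Mel+LPS vs LPS up and lowest in Mel+LPS vs LPS down, while the intervals of the LPS vs Veh tables overlapped under the centre rule. The share of up peaks moved to 41.8% with NM transcripts in LPS vs Veh, and in Mel+LPS vs LPS to 76.6% at an LLR of at least 3, 79.0% with 1 peak per gene and 81.8% with NM transcripts. With 1 peak per gene, the median LLR moved to 2.52, 2.26 and 2.39 in the first 3 tables. The median exon length was 762, 638, 784 and 519 bases for the exon that held the peak centre, 161 in LPS vs Veh up at an LLR of at least 3, and 173 and 165 in the 2 up tables with each exon counted once. The GGAC ratio moved to 1.14 and 1.12 in the up tables with the motif widened to either purine at its first 2 bases, to 1.19 in Mel+LPS vs LPS up with the peak moved 100 bases toward the 5′ end, to 1.35, 1.27, 1.36 and 1.28 in exons of 400 bases or more, and to 0.736, 0.790, 0.802 and 0.803 on the other strand. Host genes with both directions fell to 55 and 76 at an LLR of at least 3, and to 59 and 77 when the same exon was required. The cause of these moves was not tested.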

Other observations

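The same LLR recurred in many internal exon peaks. The value 3.78 was the commonest in LPS vs Veh up and was carried by 115 internal exon peaks (4.79%) and by 1335 other peaks (13.9%). The commonest values of the other tables were 3.63 in LPS vs Veh down, in 57 internal exon peaks (3.75%) and 677 others (14.3%), 5.42 in Mel+LPS vs LPS up, in 90 (1.85%) and 389 (4.54%), and 3.85 in Mel+LPS vs LPS down, in 102 (8.73%) and 1268 (15.8%). Among the peaks named above, Ankrd12 carried the value 5.42 in Mel+LPS vs LPS up. Without the recurring value, the median LLR of internal exon peaks was 2.13, 2.02, 2.08 and 1.98 in the 4 tables.

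The gene that the nearest-start assignment gave was the host gene in 54.8% of internal exon peaks of LPS vs Veh up, 58.3% of LPS vs Veh down, 57.1% of Mel+LPS vs LPS up and 52.0% of Mel+LPS vs LPS down. For 6 of the 20 peaks with the highest values it was another gene, such as Dnase2b for the peak in Uox and Lig1 for the peak in Zswim9. Counting host genes by the assigned gene gave 215 and 328 genes with both directions, in place of 235 and 360.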
